A study of Mus musculus with 3 samples.

Results

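The genes described here are Apoe, Apoc2, Lpl, Fabp4, Fabp5, Trem2, Gpnmb, Cd36, Plin2 and Lgals3, 10 of the 36530 features counted in single cells of 3 mouse melanomas. They were taken by name, as genes known from lipid handling by macrophages, and each was looked up through its Entrez ID. All 10 were found, with 319039 UMIs of Apoe at one end and 1158 UMIs of Gpnmb at the other over all 12670 cells. A UMI is a random tag that lets 1 captured RNA molecule be counted once. The cells carry the study's own cluster names, and 3 of its 25 clusters, Macrophages, Monocytes1 and Monocytes2, are the monocyte and macrophage clusters against which 10 stroma clusters and 2 tumor clusters are set.

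The tumors were an untreated melanoma, a melanoma that had regressed on vemurafenib and a melanoma that had progressed on it, with 1 tumor in each group. Vemurafenib blocks the kinase made from mutant BRAF. All tumors came from a C57BL/6 mouse model that carries a mutant Braf allele behind a stop cassette (Braf LSL), a further floxed allele and a Tyr.CreER recombinase, and part of the colony also carries a Rosa26 LSL.tdTomato reporter. The tyrosinase promoter restricts the recombinase to the melanocyte lineage, so macrophages and stroma are the host's own cells, in which the recombinase is not driven. Tumors were induced on the shaved skin of young adult animals with 4-OH tamoxifen, and were digested to single cells for loading. The study places the regressed tumor in an acute phase of treatment that lasted days. Which of the lines each tumor came from, the age of each animal at sampling and the time on drug of the progressed tumor were not given in the sources used here.

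Macrophages take up lipoproteins, membranes and dead cells, break the lipid down in lysosomes, and either store it in droplets or hand it back to lipoproteins. Trem2 is a receptor on macrophages that senses lipids and lipoproteins, Cd36 is a scavenger receptor and fatty acid carrier, and Lpl is the secreted lipase that frees fatty acids from triglyceride. Fabp4 and Fabp5 bind fatty acids inside the cell, Plin2 coats lipid droplets, and Apoe and Apoc2 are secreted apolipoproteins, of which Apoc2 is the activator of Lpl. Gpnmb is a membrane glycoprotein of lysosomes and melanosomes, and Lgals3 is galectin-3, a sugar-binding protein that also gathers at damaged lysosomes. In skin, adipocytes, capillary endothelium, keratinocytes and fibroblasts use several of these genes as well.

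Promoter windows from 250 bases before to 50 bases after the start site were held for 7 of the 10 genes, in 9 windows from RefSeq on build GRCm38.p6. The windows of Trem2 (chr17:48346151-48346450, plus strand) and Apoc2 (chr7:19677892-19678191, minus strand) are shown because these genes had the largest shares of their UMIs in the monocyte and macrophage clusters, and that of Gpnmb (chr6:49036268-49036567, plus strand) because its counts lay largely elsewhere. Capitals mark matches to the motifs searched.
Trem2: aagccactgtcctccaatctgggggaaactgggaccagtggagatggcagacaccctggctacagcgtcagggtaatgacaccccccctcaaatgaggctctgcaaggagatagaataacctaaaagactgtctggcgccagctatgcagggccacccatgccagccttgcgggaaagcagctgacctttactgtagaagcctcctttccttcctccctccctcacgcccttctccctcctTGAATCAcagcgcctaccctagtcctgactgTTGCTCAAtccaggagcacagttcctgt
Apoc2: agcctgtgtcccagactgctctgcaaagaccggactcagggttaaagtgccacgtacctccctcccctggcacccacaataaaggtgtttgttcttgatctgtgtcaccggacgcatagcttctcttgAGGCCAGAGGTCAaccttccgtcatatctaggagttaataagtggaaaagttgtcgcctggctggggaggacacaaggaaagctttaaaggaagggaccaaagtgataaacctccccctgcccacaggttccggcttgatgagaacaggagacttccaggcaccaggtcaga
Gpnmb: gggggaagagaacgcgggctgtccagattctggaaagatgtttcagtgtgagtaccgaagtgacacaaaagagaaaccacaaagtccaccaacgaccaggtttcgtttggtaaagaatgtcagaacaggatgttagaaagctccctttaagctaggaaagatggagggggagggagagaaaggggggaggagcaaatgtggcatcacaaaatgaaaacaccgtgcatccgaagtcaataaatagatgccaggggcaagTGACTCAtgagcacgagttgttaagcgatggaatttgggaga
In the Trem2 window the capitals are an AP-1 motif (TGANTCA) from 9 to 3 bases before the start and a C/EBP motif (TTGCNNAA) from base 23 to base 30 after it. In the Apoc2 window they are a direct repeat of the kind bound by PPAR and RXR, known as DR1, at 122 to 110 bases before the start. The Gpnmb window held an AP-1 motif from base 9 to base 15. These motifs were searched on both strands and were found in 7.81% (AP-1), 10.8% (C/EBP) and 0.381% (DR1) of all 32851 promoter windows. Of the other motifs, the E-box CACGTG was found in the window of Plin2 (7.15% of all windows) and the TATA box TATAAA in a window of Apoe (13.6%). The PU.1 core GAGGAAGT (3.20%) and the LXR repeat known as DR4 (0.0152%) were in 0 of the 9. A match is a string of letters and does not show that a factor binds there.

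The libraries held 3726 to 4849 cells and 12413268 to 26948940 UMIs, and the cells of the regressed tumor were shallow, at 2658 UMIs in the median cell, where the untreated had 4496 and the progressed 4566. It also stood apart in other ways. Xist, transcribed in female cells, was at 0.403 counts per 1000000 UMIs (CPM) in it against 1494 and 1735 CPM. Y-linked genes were at 220 CPM against 0.946 and 1.19 CPM. By these levels the regressed tumor came from a male and the other tumors from females. In comparisons with the regressed tumor, sex and treatment group cannot be told apart. Haemoglobin was at 21679 CPM against 1453 and 45 CPM. Red blood cell genes reached 1823 to 1900 CPM in all 3 regressed monocyte and macrophage clusters and at most 51.6 CPM in those of the other tumors, mast cell genes 524 to 605 CPM against at most 93.3 CPM, and keratinocyte genes 726 to 835 CPM against at most 367 CPM. The part of such transcripts of other cells in the differences between tumors was not tested.

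Cluster names were checked against marker genes. The 10 macrophage genes, among them Adgre1, C1qa and Csf1r, summed to 21348, 26149 and 29316 CPM in Macrophages of the untreated, regressed and progressed tumor, the order in which values are given throughout. In Monocytes1 they summed to 9118, 12777 and 23032 CPM, beside 7077, 5018 and 10435 CPM of monocyte genes. Monocytes2 carried genes of dendritic cells beside those of macrophages. Its macrophage genes summed to 2291, 1453 and 4394 CPM, and its 10 dendritic cell genes, among them Flt3, Ccl22 and Cd207, to 1923, 828 and 2052 CPM, against 18.6 to 28.9 CPM in Macrophages. It is therefore described by its cluster name only. Macrophages held 312, 143 and 339 cells, Monocytes1 held 225, 197 and 53, and Monocytes2 held 69, 57 and 161.

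Levels are CPM of the UMIs summed over the cells of a cluster, with exact Poisson 95% intervals, and each ratio between groups is a log2 ratio of CPM with its exact 95% interval in parentheses. Transcript ends were counted, so CPM values are comparable across cells for a gene and say less about one gene against another. With 1 tumor per group the intervals cover counting error only, and no p-value can be given. A gene is called higher or lower where the groups stood at least 2-fold apart, the interval held no 0 and both groups together held at least 20 UMIs.

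**Figure D1:**
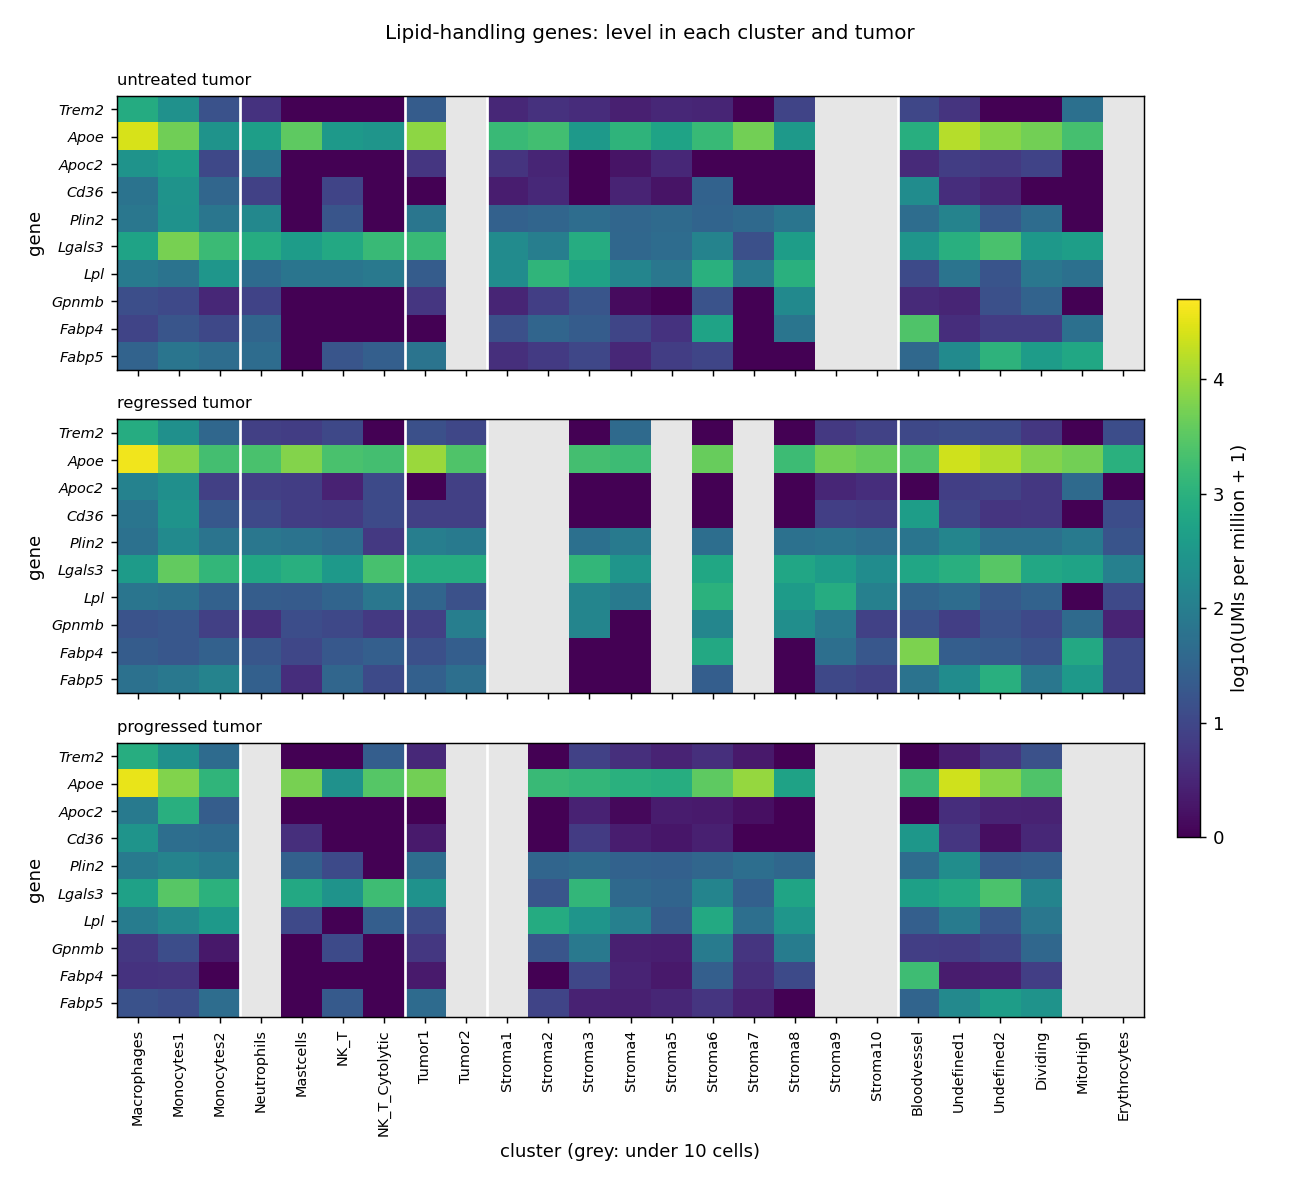
Level of each of the 10 genes in each of the 25 clusters and 3 tumors, as log10 of CPM plus 1 (colour), with groups of fewer than 10 cells in grey. Trem2 and Apoc2 stand out in the macrophage and monocyte clusters, Fabp4 in Bloodvessel, Lpl in stroma clusters, Fabp5 in Undefined2, and Apoe is seen in every cluster.

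Trem2 (Entrez ID 83433, chromosome 17, 48346401 to 48352276, protein-coding) was a gene of the Macrophages cluster in all 3 tumors. It stood at 775 CPM (726 to 827) in the untreated, 817 CPM (712 to 932) in the regressed and 860 CPM (810 to 912) in the progressed tumor. The intervals of the 3 tumors overlapped. Against the untreated tumor the log2 ratio was 0.075 (-0.14 to 0.29) in the regressed and 0.15 (0.022 to 0.28) in the progressed one, and between the treated tumors it was 0.074 (-0.14 to 0.29). With every cell thinned to 1000 UMIs, 50.7%, 56.5% and 50% of Macrophages held a Trem2 UMI. Among NK_T cells, lymphocytes that should lack the receptor, 2 of 168 thinned regressed cells did (1.19%), and 0 of 25 untreated and 0 of 17 progressed ones did, which allow up to 12% and 17.6%. Monocytes1 came second, at 234, 225 and 229 CPM, again with overlapping intervals. No other cluster reached this range, and Monocytes2 held 14.0, 36.8 and 43.5 CPM. In the progressed tumor 25 of the 44 Trem2 UMIs of Monocytes2 came from 1 cell, which carried 510 UMIs of the macrophage genes and 0 of the dendritic ones. The 3 clusters together held 95%, 83.4% and 93.3% of all Trem2 UMIs of a tumor in 14.8%, 10.7% and 11.4% of its cells.

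Gpnmb (Entrez ID 93695, chromosome 6, 49036518 to 49058182, protein-coding), often named beside Trem2 as a gene of lipid-laden macrophages, was not a macrophage gene in these tumors. Macrophages held 12.4, 14.9 and 4.74 CPM, on 15, 4 and 6 UMIs. Its highest levels with at least 10 cells were in Stroma8, at 172, 209 and 94.6 CPM, of which the untreated value was 106 CPM without 1 cell that held 9 of its 21 UMIs. In the regressed tumor 1 cell held 9 of the 15 UMIs of Stroma8, and Stroma6 and Stroma3 stood at 145 and 135 CPM on 6 and 5 UMIs. In the progressed tumor the interval of Stroma8 (56.1 to 150) covered that of Stroma6 (81.65 to 97.35). Stroma as a whole held 46.7%, 61.8% and 84.5% of all Gpnmb UMIs in 64.2%, 51.5% and 70.6% of the cells. In the untreated tumor monocytes and macrophages stood above stroma, at 9.78 against 5.97 CPM, by 0.71 (0.030 to 1.35), below the 2-fold limit. Stroma6 and Stroma3 were higher in the progressed than in the untreated tumor, at 89.2 against 14.8 CPM and at 79.8 against 16.3 CPM. Tumor cells, in which Gpnmb is known as a melanosome gene, held 90.9 and 78.9 CPM in the untreated and regressed tumors and 11.9 CPM in the progressed one. These tumor cell values rest on Tumor2, whose 4 untreated cells held 23 of 24 UMIs and whose 349 regressed cells held 46 of 47. Tumor1 held 4.53, 6.62 and 4.83 CPM.

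Apoe (Entrez ID 11816, chromosome 7, 19696244 to 19701310, protein-coding) was the most abundant of the 10 genes and was found in every cluster. Macrophages led in each tumor, at 25799 CPM (25513 to 26087), 39883 CPM (39132 to 40644) and 35231 CPM (34905 to 35559). Of the Macrophages, 99.7%, 100% and 99.7% held an Apoe UMI. The next levels were in Undefined1, at 14790, 23374 and 22466 CPM, and in Undefined2, at 7341, 14122 and 7089 CPM, 2 clusters rich in keratin transcripts (keratinocyte genes at 8705 to 30866 CPM). The ranges of Macrophages, Undefined1 and Undefined2 over the tumors did not overlap, while those of Undefined2 and Tumor1 (7833, 10017 and 5094 CPM) did. Monocytes1 held 4811, 7038 and 6359 CPM. Macrophages took 36.6%, 13.3% and 29.1% of all Apoe UMIs of a tumor, and stroma, at only 1479, 4052 and 2552 CPM but with most of the cells, took 24.4%, 32.3% and 29.4%.

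Apoe reached 20 UMIs in every cluster compared between tumors, which Trem2, Apoc2 and Gpnmb did in only 3 of 17 between the regressed and the untreated one, so counts of clusters cannot be compared between these genes. Of 17 clusters measured in the untreated and the regressed tumor, 9 were called higher in the regressed tumor and 0 lower. They included clusters that should make little of it, such as NK_T, at 339 CPM in the untreated, 2242 CPM in the regressed and 236 CPM in the progressed tumor. In Macrophages the regressed tumor stood above the untreated by a log2 ratio of 0.63 (0.60 to 0.66), below the 2-fold limit. The regressed tumor is the library in which transcripts of red blood cells, mast cells and keratinocytes were also raised in unrelated clusters, and the part of free RNA in the Apoe values was not tested.

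Apoc2 (Entrez ID 11813, chromosome 7, 19671579 to 19677941, protein-coding), a close neighbour of Apoe on chromosome 7, was confined to fewer cells. Monocytes1 and not Macrophages led in all 3 tumors. It held 434 CPM (397 to 475), 215 CPM (184 to 249) and 925 CPM (809 to 1052), with the progressed tumor highest and no interval overlapping another. Macrophages held 255 CPM (227 to 285), 119 CPM (81.2 to 168) and 83.8 CPM (68.6 to 101), with the untreated tumor highest and the other intervals overlapping. Their order over the tumors thus differed between the clusters. The share of thinned Monocytes1 cells with an Apoc2 UMI was 26.5%, 15.8% and 51%, against 18.8%, 6.52% and 6.02% in Macrophages and 0 of 25, 0 of 168 and 0 of 17 NK_T cells. In stroma the level was 2.06, 2.80 and 0.966 CPM. The 3 monocyte and macrophage clusters held 84.5%, 83.8% and 92.5% of all Apoc2 UMIs. Untreated Neutrophils held 65.7 CPM on 100 UMIs, 10.56% of that tumor's Apoc2 UMIs, and regressed Neutrophils held 6.72 CPM on 2 UMIs.

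**Figure D2:**
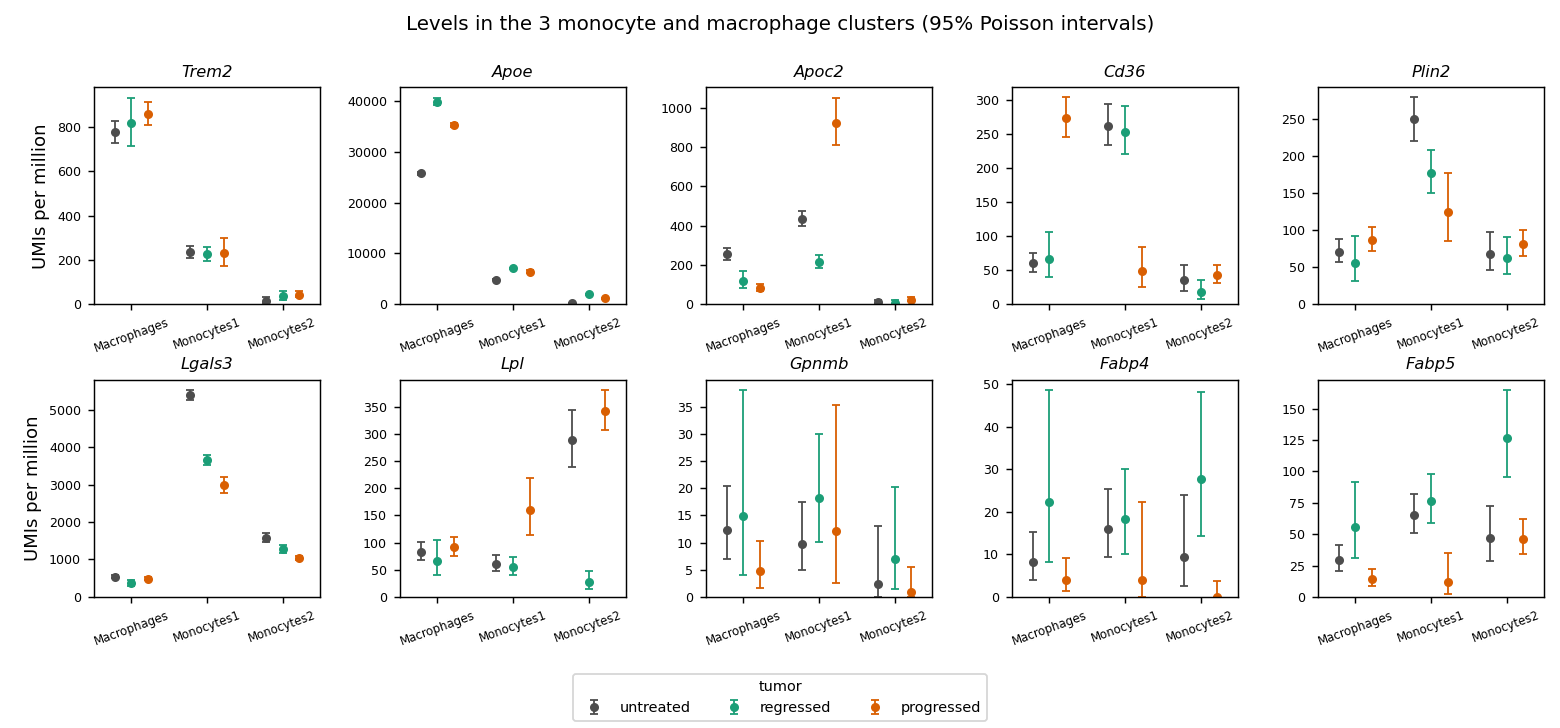
CPM of each gene in Macrophages, Monocytes1 and Monocytes2 of the untreated, regressed and progressed tumor, on linear axes from 0 with a scale of its own for each gene, with exact Poisson 95% intervals. Trem2 keeps its level in Macrophages and Monocytes1 over the tumors, while Apoc2 in the progressed tumor stands at 83.8 CPM in Macrophages and 925 CPM in Monocytes1, and Cd36 at 273 and 48.2 CPM.

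Cd36 (Entrez ID 12491, chromosome 5, 17781690 to 17888959, protein-coding) had its highest level among the 3 clusters in a different one at progression. Macrophages held 60.3 CPM (47.3 to 75.9) in the untreated and 66.8 CPM (39.6 to 106) in the regressed tumor, which overlapped, and 273 CPM (245 to 304) in the progressed one. Monocytes1 held 262 CPM (233 to 294), 254 CPM (220 to 291) and 48.2 CPM (24.9 to 84.3). So the cluster with more Cd36 was Monocytes1 in the untreated and regressed tumors and Macrophages in the progressed tumor. After thinning, Cd36 was found in 3.95%, 5.43% and 23.2% of Macrophages and in 17.8%, 13.6% and 2.04% of Monocytes1, against 1 of 168 regressed NK_T cells (0.595%) and 0 of the others. In the untreated tumor 174 of 225 Monocytes1 cells held no Cd36 UMI, while the 22 cells with the most held 80.0% of the UMIs. Summed over the 3 clusters the levels were close, at 139, 154 and 159 CPM. Without Monocytes2 they were 158, 208 and 236 CPM, and the intervals of the untreated (142 to 175) and the progressed tumor (213 to 262) did not overlap. Blood vessel cells, in which Cd36 carries fatty acids across the endothelium, held 194, 410 and 312 CPM.

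The fatty acid binding genes were mainly genes of other cells. Fabp4 (Entrez ID 11770, chromosome 3, 10204342 to 10208616, protein-coding), known from adipocytes, capillary endothelium and some macrophages, reached 2521, 5876 and 1732 CPM in Bloodvessel, which held 75.7%, 80.0% and 58.4% of its UMIs. Macrophages held 8.27, 22.3 and 3.95 CPM, on 10, 6 and 5 UMIs. Without 1 cell with 113 of the 272 progressed UMIs the last Bloodvessel value was 1058 CPM. Stroma6 stood at 534 and 675 CPM in the untreated and regressed tumors and at 25.5 CPM in the progressed one. In the untreated tumor 1 of 83 cells held 109 of the 253 Fabp4 UMIs of Stroma6 and in the regressed 1 of 13 cells held 14 of 28, and without these cells the levels were 312 and 374 CPM. Between the progressed and the untreated tumor 4 of the 10 genes were called in Stroma6 (Apoe and Gpnmb higher, Fabp4 and Cd36 lower), beside 6.39% of all features, and between the progressed and the regressed tumor 1, Fabp4, was called in Bloodvessel, beside 15.9%. Adipocyte genes such as Adipoq and Plin1 summed to at most 12.1 CPM in the monocyte and macrophage clusters. Fabp5 (Entrez ID 16592, chromosome 3, 10012585 to 10016610, protein-coding), known from epidermis, was highest in the keratin-rich Undefined2, at 1069, 916 and 410 CPM, and this cluster held 60.6%, 68.2% and 50.3% of its UMIs. Macrophages held 29.8, 55.7 and 14.2 CPM and Monocytes1 65.0, 76.5 and 12.1 CPM. Fabp5 has near-identical pseudogene copies, and since only uniquely mapped reads were counted its values are uncertain.

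Lpl (Entrez ID 16956, chromosome 8, 68880555 to 68906932, protein-coding) was a stroma gene. Stroma held 623, 267 and 281 CPM and with it 94.6%, 89.8% and 85.7% of all Lpl UMIs. Stroma2 led with 1163 CPM in the untreated and 776 CPM in the progressed tumor, followed by Stroma6 at 969, 988 and 704 CPM, with overlapping ranges. Of the 41 regressed Stroma6 UMIs 28 came from 1 of 13 cells, without which the level was 415 CPM. Stroma9, with 310 cells in the regressed tumor, stood at 796 CPM in it. Stroma8 stood at 960, 377 and 300 CPM, on 23, 18 and 21 cells. The low regressed value of stroma comes with Stroma10, a cluster of 1537 regressed cells at 111 CPM. Without it regressed stroma stood at 752 CPM. Macrophages held 82.7 CPM (67.2 to 100), 66.8 CPM (39.6 to 106) and 91.7 CPM (75.8 to 110), all overlapping. Monocytes1 held 61.4, 54.6 and 161 CPM. Monocytes2 had the most Lpl of the 3, at 288 CPM (239 to 344) in the untreated and 343 CPM (308 to 381) in the progressed tumor, against 27.6 CPM (14.3 to 48.2) in the regressed one.

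Plin2 (Entrez ID 11520, chromosome 4, 86626910 to 86670217, protein-coding) was spread over many clusters at a low level. Monocytes1 held 249 CPM (221 to 280), 177 CPM (150 to 208) and 125 CPM (84.7 to 177), and Plin2 stood at 71.1, 55.7 and 86.9 CPM in Macrophages with overlapping intervals. The keratin-rich Undefined1 held 126 CPM (105 to 150), 134 CPM (107 to 166) and 201 CPM (180 to 225), less than Monocytes1 in the untreated and more in the progressed tumor, with intervals that overlapped in the regressed one. Neutrophils held 153 CPM (134 to 174) in the untreated tumor, with 17.55% of its Plin2 UMIs, and 70.6 CPM (43.7 to 108) in the regressed one. Stroma held 33.9, 54.6 and 32.5 CPM.

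Lgals3 (Entrez ID 16854, chromosome 14, 47373860 to 47386167, protein-coding) was a Monocytes1 gene more than a Macrophages gene. Monocytes1 held 5389 CPM (5254 to 5526), 3648 CPM (3519 to 3781) and 2987 CPM (2776 to 3209), highest in the untreated and lowest in the progressed tumor. Macrophages held 540, 375 and 480 CPM, several-fold less in each tumor. Undefined2 held 2268, 2954 and 2314 CPM, NK_T_Cytolytic 1562, 2131 and 1705 CPM, and Monocytes2 1581, 1276 and 1037 CPM. Tumor cells stood at 2050, 805 and 248 CPM. The untreated value includes 4 cells of Tumor2, and Tumor1 ranged from 248 to 1532 CPM over the tumors.

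**Figure D3:**
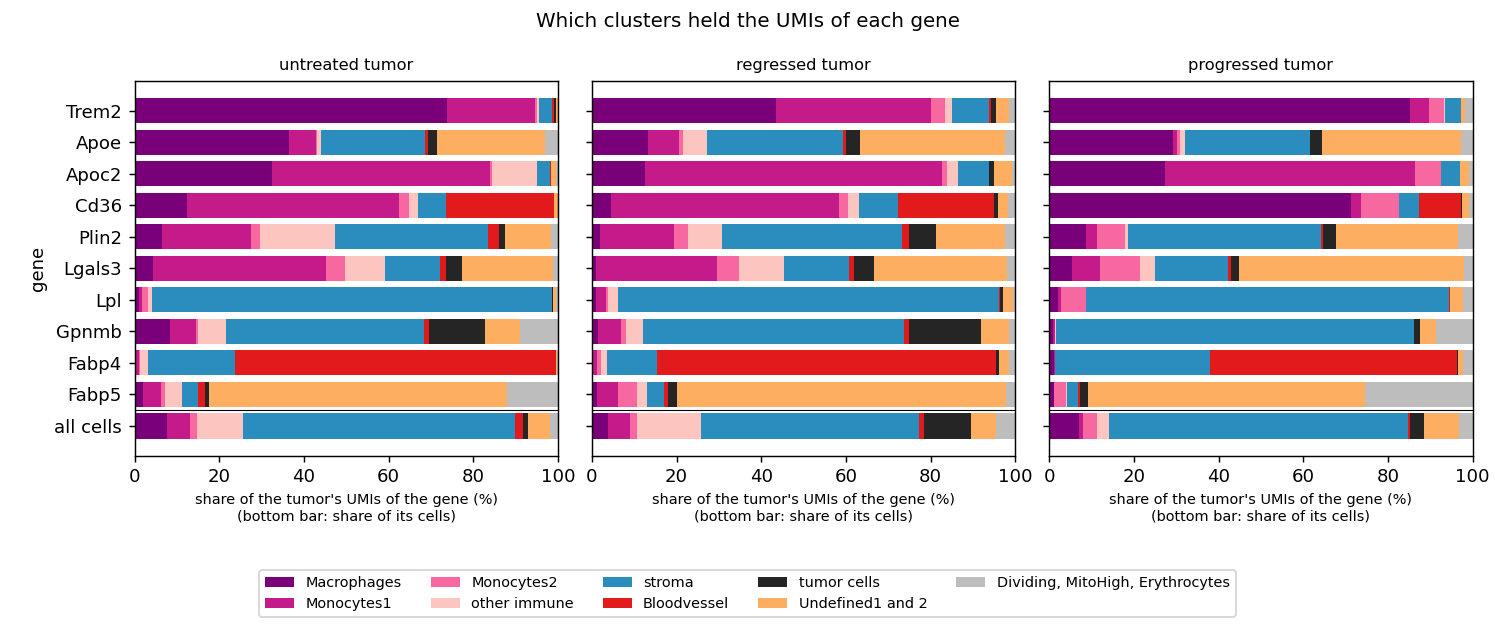
Share in percent of each gene's UMIs in a tumor that fell in each compartment, with the share of the tumor's cells as the lowest bar. Monocytes and macrophages, 10.7% to 14.8% of cells, hold over 80% of Trem2 and Apoc2 UMIs, while stroma holds over 85% of Lpl and blood vessel cells over 58% of Fabp4.

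The first comparison asked which of the genes set monocytes and macrophages apart from stroma. In each tumor 7 of the 10 were called higher (Apoe, Apoc2, Fabp5, Trem2, Cd36, Plin2 and Lgals3), beside 13.9%, 13.4% and 13.7% of all features tested. The largest ratios were those of Trem2, 7.27 (6.81 to 7.76), 5.33 (4.88 to 5.81) and 7.43 (7.01 to 7.88), and Apoc2, 7.14, 5.63 and 7.20. Cd36 followed at 5.65, 4.78 and 6.99. Lgals3 stood at 4.28, 3.24 and 3.11, Fabp5 at 3.34, 3.54 and 3.30, and Apoe at 3.17, 1.49 and 2.88. The smallest were those of Plin2, 2.08, 1.17 and 1.44. For 5 of the 7 genes, Apoe, Apoc2, Trem2, Cd36 and Plin2, the regressed tumor had the lowest ratio, and in it their level in stroma was highest. Lpl was lower in monocytes and macrophages, by -2.56 and -2.44, in the untreated and regressed tumors, and stood at -0.50 (-0.63 to -0.37) in the progressed one. In the progressed tumor 347 of the 503 Lpl UMIs of the 3 clusters lay in Monocytes2, the cluster with dendritic cell genes. Macrophages held 91.7 CPM there, against 281 CPM in stroma. Fabp4 was lower in the untreated and progressed tumors (-1.71 and -2.03) and Gpnmb in the progressed tumor (-3.09).

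Set against tumor cells, 5 of the 10 genes were higher in monocytes and macrophages of the untreated tumor, 6 in the regressed and 6 in the progressed one, beside 11.1%, 13.5% and 15.5% of all features. Apoe, Apoc2, Lpl, Trem2 and Cd36 were called in each tumor and Lgals3 in the treated ones. Trem2 stood at 4.26 (3.14 to 5.71), 4.77 (3.64 to 6.23) and 7.63 (5.77 to 10.7), on 6, 6 and 2 UMIs in tumor cells. Cd36 had 0 UMIs in untreated tumor cells, so it was at least 12.2-fold higher in untreated monocytes and macrophages, and Apoc2 had 0 in progressed ones and was at least 39.9-fold higher there. The ratio of Apoe was small, 1.0 (0.93 to 1.07), 1.36 and 1.89, since tumor cells held 6638, 4438 and 5051 CPM. With Tumor1 alone it was 0.76 in the untreated and 0.18 in the regressed tumor and no longer called there. Gpnmb was lower in monocytes and macrophages of each tumor, at -3.22, -2.45 and -1.59, but with Tumor1 alone its ratio was 1.11 in the untreated and 1.12 in the regressed tumor. In the progressed tumor 6 of the 10 Gpnmb UMIs of tumor cells came from 1 cell of Tumor2, and with Tumor1 alone the ratio was -0.29 on fewer than 20 UMIs and was not called. Tumor cells were few, 48, 410 and 160, and the regressed ones had a median of only 832 UMIs.

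The second comparison asked which genes differed between tumors within a cluster. In Macrophages the untreated and regressed tumors differed in 1 gene (Apoc2), beside 10.3% of all features in either direction. Between the progressed and the untreated tumor 3 genes were called, beside 6.73%, and between the progressed and the regressed tumor 2, beside 10.1%. Cd36 was higher in the progressed tumor, by 2.18 (1.81 to 2.56) against the untreated and by 2.03 (1.35 to 2.81) against the regressed one. The latter ratio rests on 18 regressed UMIs. Apoc2 was lower in both treated tumors than in the untreated, at -1.10 (-1.67 to -0.57) in the regressed and -1.60 (-1.94 to -1.28) in the progressed. Fabp5 was lower in the progressed tumor at -1.06 (-1.97 to -0.21) and -1.97 (-3.04 to -0.88), on 36, 15 and 18 UMIs. Apoe, Trem2, Lpl, Plin2 and Lgals3 were within 2-fold in each comparison, and Gpnmb and Fabp4 had at most 21 UMIs in any pair of tumors.

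In Monocytes1, 1 gene was called between the regressed and the untreated tumor, beside 13.6% of features, and 4 genes in each comparison of the progressed tumor, beside 9.37% (against untreated) and 13.9% (against regressed). Apoc2 was higher in the progressed tumor, by 1.09 (0.86 to 1.32) and 2.10 (1.82 to 2.40), and so was Lpl, by 1.39 (0.79 to 1.97) and 1.56 (0.91 to 2.2). Cd36 was lower, at -2.44 (-3.41 to -1.62) and -2.40 (-3.37 to -1.56), on 12 UMIs in the progressed tumor. Fabp5 was lower too, at -2.43 (-4.74 to -0.83) and -2.67 (-4.98 to -1.05), on 3 UMIs in the progressed tumor. With cells thinned to 1000 UMIs no Fabp5 UMI was left in the progressed tumor, and neither Fabp5 nor Lpl was called. The gene called between the regressed and the untreated tumor was Apoc2, at -1.01 (-1.27 to -0.76), which is just past the 2-fold limit, and Plin2 at -1.0 (-1.58 to -0.46) for progressed against untreated fell just short of it. Only 53 progressed cells carried this name. Neutrophil genes summed to 3302, 908 and 105 CPM in Monocytes1, in the reverse order of its macrophage genes, and the part of these shifts in the differences was not tested.

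Opposite calls in Macrophages and Monocytes1 were few. Of the 8 genes with 20 UMIs in both clusters, 2 (Apoc2 and Cd36) were called in opposite directions between the progressed and the untreated tumor, beside 0.151% of all features so measured (10 of 6618). Between the progressed and the regressed tumor 1 was (Cd36), beside 0.273% (17 of 6226), and between the regressed and the untreated tumor 0 were, beside 0.0279% (2 of 7162).

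In Monocytes2, 3 genes were called between the regressed and the untreated tumor, beside 14.9% of features, 2 between the progressed and the untreated, beside 7.38%, and 4 between the progressed and the regressed, beside 16.0%. Lpl was lower in the regressed tumor than in the others, at -3.38 (-4.38 to -2.53) against the untreated, and the progressed stood 3.63 (2.81 to 4.60) above it. Apoe was higher in the treated tumors, by 2.90 and 2.15, and Fabp5 was highest in the regressed one, at 126 CPM against 46.8 and 46.4 CPM. Cd36 was higher in the progressed than in the regressed tumor, by 1.21 (0.10 to 2.51), on 8 regressed UMIs. The calls for Trem2 (1.63, progressed against untreated) and Apoc2 (1.78, progressed against regressed) each rest on 1 cell. Without the cell with the most UMIs in each tumor, Trem2 stood at 1.38 and was not called, and Apoc2 turned to -0.66. Apoe, with 413 of its 1181 progressed UMIs in 1 cell, went from -0.74 to -1.11 between the progressed and the regressed tumor and was then called lower.

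**Figure D4:**
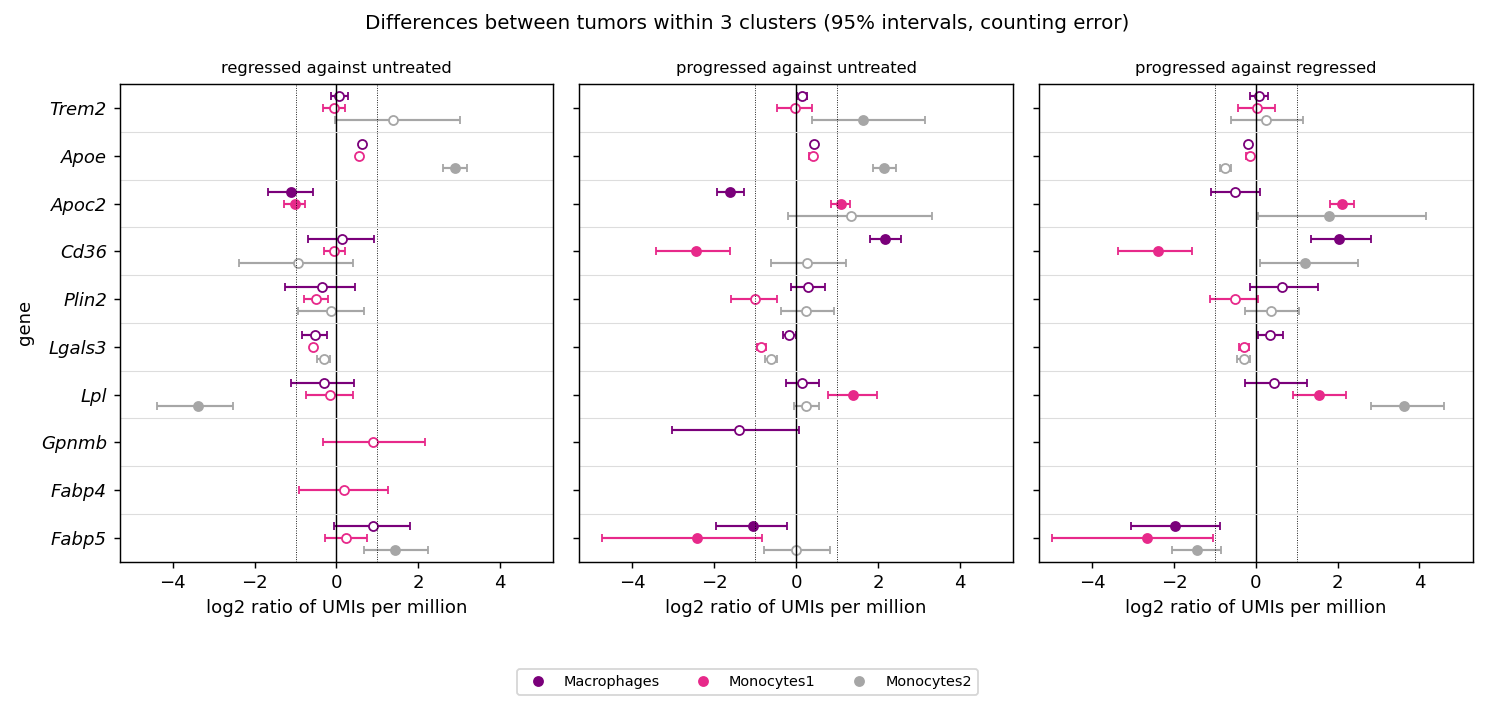
Log2 ratios of CPM between tumors for each gene in Macrophages, Monocytes1 and Monocytes2, with exact 95% intervals, filled where called and shown only for at least 20 UMIs in the pair. Cd36 lies right of 0 in Macrophages and left of 0 in Monocytes1 for the progressed tumor, and Trem2 lies near 0 in both.

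Related lipid genes were read from 4 lists in Macrophages. Of 10 genes of lysosomal lipid breakdown, such as Lipa, Npc2 and Ctsd, 0 were called in any of the comparisons, beside 10.3% (regressed against untreated), 6.73% (progressed against untreated) and 10.1% (progressed against regressed) of all features, with median log2 ratios of -0.38 and -0.066 in the regressed and the progressed tumor against the untreated and 0.31 between the treated ones, beside -0.048, -0.11 and -0.062 over all features. Of 10 cholesterol efflux genes 1 was called in each treated tumor against the untreated and 0 between the treated ones. Nr1h2, a nuclear receptor for oxysterols, fell from 58.7 CPM in the untreated to 18.6 CPM in the regressed tumor. In regressed Macrophages 6 UMIs stand for 22.3 CPM, so that Nr1h2 value rests on fewer. Apoc4 fell from 14.0 CPM in the untreated to 3.95 CPM in the progressed tumor, on 17 and 5 UMIs. Of 15 genes of droplets and fatty acid use, 11 had 20 UMIs in each comparison with the untreated tumor and 2 were called in each, and 0 of 10 between the treated tumors. The lipase Lipe and the lipase inhibitor G0s2 were higher in the regressed tumor, at 48.2 CPM each where the untreated had 21.5 and 22.3 CPM. In regressed Macrophages 15 UMIs stand for 55.7 CPM, so each of these regressed values rests on fewer. In the progressed tumor G0s2 was lower than in the untreated, at 4.74 CPM, and Acsl1, which activates fatty acids, was higher, at 33.2 against 14.0 CPM.

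The 12 genes often named with Trem2 split in both directions, with 2 higher and 1 lower of 9 with 20 UMIs in the regressed against the untreated tumor, 1 and 1 of 11 in the progressed against the untreated, and 2 and 2 of 9 in the progressed against the regressed, beside the same 10.3%, 6.73% and 10.1% of all features. Cd9, a tetraspanin, was at 57.0, 431 and 139 CPM and was called in all 3 comparisons, highest in the regressed tumor. Cd63, a tetraspanin of lysosomes, was at 653 CPM in the untreated and 1336 CPM in the regressed tumor. Spp1, osteopontin, was lower in the progressed tumor, at 75.1 CPM against 177 and 215 CPM. Syk, a kinase downstream of Trem2, was lowest in the regressed tumor, at 78.5, 37.1 and 79.0 CPM, with fewer than 15 UMIs in the regressed one. Clec7a, a glucan receptor, stood at 102, 70.5 and 160 CPM and was called between the treated tumors. The median ratio of the list was 0.00072, 0.073 and 0.20, against -0.048, -0.11 and -0.062 over all features.

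In Monocytes1 the list linked to Trem2 had 0 calls of 11 genes with 20 UMIs in the regressed against the untreated tumor (13.6% of all features), 1 higher and 3 lower of 10 in the progressed against the untreated (9.37%) and 3 lower of 9 in the progressed against the regressed (13.9%). In the same order, lysosomal lipid breakdown had 1 higher, 1 lower and 1 lower of 10, cholesterol efflux 0 of 8, 2 lower of 6 and 2 lower of 7, and droplets and fatty acid use 2 lower of 12, 3 lower of 12 and 2 higher and 3 lower of 11. In Monocytes2 the list linked to Trem2 had 1 higher and 1 lower, 2 lower, and 1 higher and 3 lower of 11, beside 14.9%, 7.38% and 16.0% of all features, and the other 3 lists described had 1 to 3 calls in each comparison.

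The genes whose levels followed each of the 10 most closely were found by Pearson correlation of log2(CPM + 10) over the 60 cluster and tumor groups with at least 10 cells, among 11127 features, as a description. Groups of 1 tumor share a library and its depth. Trem2 was closest to Adgre1 (0.90), Fcgr1 (0.89) and Tlr7 (0.89), and Apoc2 to Msr1 (0.89), Clec4a1 (0.88) and Cybb (0.87), all genes of macrophages and monocytes. Cd36 came with Tifa (0.79), Lmo2 (0.78) and Tnfrsf11a (0.77). Fabp4 was closest to Esam (0.87), Grrp1 (0.85) and Adgrf5 (0.83), which are endothelial. Fabp5 was closest to Ap1m2 (0.83), Fxyd3 (0.79) and Plek2 (0.79), of which Ap1m2 and Fxyd3 are epithelial. Features had to reach 50 CPM in at least 1 group. Ap1m2 and Plek2 were highest, at 53.5 and 107 CPM, in untreated MitoHigh. In that group of 18690 UMIs, 1 UMI stands for 53.5 CPM, so these highest levels rest on very few UMIs. Lpl followed En1 (0.78), Slc7a2 (0.77) and Ccdc80 (0.76), and Gpnmb Mfap4 (0.75), Ifi205 (0.73) and Pcolce2 (0.72), and several of these are matrix genes of fibroblasts. The widely spread genes had weaker neighbours: Serpinb8 (0.70), Cbr2 (0.67) and Prxl2b (0.66) for Apoe, Tspo (0.73), H2-K1 (0.67) and H2-D1 (0.67) for Lgals3, and Kdm7a (0.67), Ist1 (0.62) and Hebp1 (0.62) for Plin2. Among the 10 themselves the closest pairs were Apoc2 with Trem2 (0.79), Trem2 with Cd36 (0.60) and Apoc2 with Cd36 (0.56).

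Within Macrophages, Trem2 and Cd36 were found together in 37 of 332 thinned progressed cells, where 38.5 would follow from the shares of 166 and 77 cells. The counts were 6 of 304 in the untreated (6.08 from the shares) and 3 of 92 in the regressed tumor (2.83), too few to tell a difference. For Apoc2 and Trem2 the counts were 27 of 304 untreated cells (28.9 from the shares), 3 of 92 regressed (3.39) and 11 of 332 progressed (10.0). In untreated Monocytes1, 3 of 219 cells held both Apoc2 and Cd36, where 10.3 would follow from the shares, and 17 held both Apoc2 and Trem2, where 12.2 would. These cells are not replicates, and no test was made.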

How the data were processed

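For each tumor the authors deposited a table of counts, which holds UMIs per feature and cell, and 1 table of cells, whose tumor, cluster name and cluster number are of no numeric unit (other) and whose total UMIs and detected genes per cell are counts. Per the study's methods, droplet 3-prime libraries were aligned to GRCm38 with GSNAP, unique sense exon reads were counted as UMIs, and cells were clustered with Seurat (2.2.0) and named by markers. Doublets were not stated to be removed, and none were removed here. Counts in the tables exceeded the deposited totals by 5.02% for a reason that was not found. No normalized values were used.

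Entrez IDs were matched to symbols for 31049 of 36530 features, and the other 5481 (3.75% of UMIs) stayed in the totals. UMIs were summed per cluster and tumor (Python 3.11.15, numpy 2.4.6, scipy 1.17.1, pandas 2.3.3). Cells were thinned to 1000 UMIs with seed 1, which left out 8, 51 and 7 Macrophages (untreated, regressed and progressed). Where a group held 0 UMIs its ratio was computed at 3 UMIs for the whole group and is given as a bound. Scripts were tested on simulated data. The 10 genes, the related lists and the markers were chosen with earlier results of these data known, and of each related list up to 3 called genes with the largest ratios in Macrophages are named. The result of 1 further list is not reported here. Alternatives were TMM scaling (edgeR 4.0.16), thinning, equal weight per cell, other minimums of UMIs, other totals and left-out cells or clusters. Levels in Bloodvessel and 3 stroma clusters without the cell with the most UMIs were added after seeing the data.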

Additional observations from a re-analysis of the deposited data

Results flagged for a closer look

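For 2 genes the monocyte and macrophage clusters moved in opposite directions between the same tumors, each past the limits used for a call. Between Macrophages and Monocytes1 this held for 0.151% of all features for progressed against untreated and 0.273% for progressed against regressed. With 1 tumor per group, whether the clusters differ was not tested.

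Apoc2 in the progressed against the untreated tumor fell in Macrophages, at a log2 ratio of -1.60 (83.8 against 255 CPM), and stood at 1.09 in Monocytes1 (925 against 434 CPM).

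Cd36 in the progressed against the untreated tumor stood at 2.18 in Macrophages (273 against 60.3 CPM) and at -2.44 in Monocytes1 (48.2 against 262 CPM). In the progressed against the regressed tumor it stood at 2.03 in Macrophages (273 against 66.8 CPM), at 1.21 in Monocytes2 (42.5 against 18.4 CPM) and at -2.40 in Monocytes1 (48.2 against 254 CPM). Monocytes1 held 225 untreated, 197 regressed and 53 progressed cells, with neutrophil genes at 3302, 908 and 105 CPM and macrophage genes at 9118, 12777 and 23032 CPM, and the part of these shifts in the opposite moves was not tested.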

How the results depend on the processing

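No paired analysis was possible because each group held 1 tumor, and for the same reason no replicate could be left out. Of 132 counts of called genes recomputed under the alternatives (15 counts in all), 98 were unchanged and 122 stayed within 1.5 times, among them all counts against stroma. Thinning to 1000 UMIs, which leaves fewer UMIs, gave 3 genes in place of 5 for untreated monocytes and macrophages against tumor cells (Apoc2, Trem2 and Cd36). It gave 1 (Cd36) in place of 2 in Macrophages for progressed against regressed, as did a minimum of 50 UMIs. In Monocytes1 thinning gave 0 in place of 1 for regressed against untreated, as did removal of the deepest 5% of cells, and 2 (Apoc2 and Cd36) in place of 4 in both comparisons of the progressed tumor. In Monocytes2 it gave 1 (Apoe) in place of 2 for progressed against untreated and 2 (Apoe and Lpl) in place of 4 for progressed against regressed, while equal weight per cell gave 5 in place of 3 for regressed against untreated. The cause of the last was not tested.

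Of 1000 log2 ratios recomputed, 809 stayed inside the interval of the value reported and 3 called ratios changed sign. With Tumor1 alone, Gpnmb in monocytes and macrophages against tumor cells stood at 1.11 (untreated) and 1.12 (regressed), as Tumor2 held nearly all of its tumor cell UMIs. Without the cell with the most UMIs, Apoc2 in Monocytes2 stood at -0.66 for progressed against regressed. TMM factors shifted all ratios of monocytes and macrophages against tumor cells by 0.64, 0.44 and 0.58 (untreated, regressed and progressed) and those against stroma by 0.12, 0.088 and 0.15. Between tumors the shifts were -0.13 to 0.25 in Macrophages, -0.27 to 0.099 in Monocytes1 and -0.19 to 0.33 in Monocytes2. Depth limits Gpnmb, Fabp4 and Fabp5 in Macrophages, which rest on 4 to 36 UMIs per tumor. It also limits Apoc2, Cd36, Lpl and Plin2 in regressed Macrophages, which rest on 32, 18, 18 and 15 UMIs. Cd36 in progressed Monocytes1 rests on 12 UMIs.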

Other observations

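Blood vessel cells shared part of this gene set. In the regressed against the untreated tumor Bloodvessel was called higher in Apoe (2705 against 882 CPM), Fabp4 (5876 against 2521 CPM), Cd36 (410 against 194 CPM) and Lgals3 (606 against 280 CPM), with 48 and 74 cells, beside 17.8% of all features called in either direction. Without the cell with the most UMIs in each tumor Cd36 stood at 342 against 175 CPM, less than 2-fold apart. Apoe, Fabp4 and Lgals3 stayed more than 2-fold apart. The regressed tumor is the library in which Apoe was higher in 9 of 17 clusters, and the part of free RNA in these values was not tested. Fabp4 was lower in the progressed than in the regressed tumor, at 1732 CPM over 28 cells (1058 CPM without 1 cell).

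Among stroma clusters, Fabp4 in Stroma6 was 25.5 CPM in the progressed tumor against 534 CPM in the untreated one (312 CPM without 1 of its 83 cells, which held 109 of 253 UMIs), while Lpl in the same cluster stood at 704 and 969 CPM.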
